A study of Danio rerio with 6 samples.

Results

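Transcripts of the lens crystallin genes were followed in RNA from cd41-positive cells of zebrafish embryos. A gene was taken as a crystallin where its Ensembl symbol, in lower case, began with crya, cryb or cryg and, for the first 2 prefixes, continued with a or b. Among 32105 counted genes, 52 met this rule, and 5 further genes that the name table lists under such symbols were not analysed here. They comprised 3 alpha, 7 acidic beta, 6 basic beta, 30 gamma M, 2 gamma N and 4 gamma S crystallins, and genes with no count are kept in every tally. Upper-case symbols are orthologue symbols, and one held by more than 1 gene is printed with its identifier.

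Crystallins are the bulk soluble proteins of the lens, made in quantity by its elongating fibre cells. Alpha crystallins are small heat shock proteins that hold other proteins in solution. Beta and gamma crystallins share a fold of Greek key motifs; the acidic and basic beta chains associate with each other, while gamma chains stay single. The gamma M crystallins are a methionine-rich group of the dense fish lens, with many near-identical copies in tandem, and gamma N crystallins stand between the beta and gamma families in sequence.

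The cells were isolated 40 hours after fertilization from ddx41 mutants (3 libraries) and wildtypes (3 libraries), which the series design calls siblings, and the library names carry cd41gfp for both genotypes. The cd41 (itga2b) gene is active in thrombocytes and, at lower level, in blood stem and progenitor cells, and DDX41 is an RNA helicase. The ddx41 allele, the number of embryos per library and the clutches are not given in the sources used here, so p-values measure the spread between these libraries, which may be technical. The level of ddx41 was not analysed here.

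Depth was 14577735 to 15912260 counts in mutant libraries and 17001423 to 17639699 in wildtype libraries, of which 21.3% to 30.7% lay on the mitochondrial genome. Counts of itga2b itself were 33, 67 and 101 in mutant replicates 1 to 3 and 61, 19 and 31 in wildtype replicates 1 to 3 (edgeR adjusted p = 0.326). A list of 19 matched blood stem, progenitor and thrombocyte genes summed to 1078 to 1751 CPM (the count relative to the library's total, scaled with TMM factors) in mutants and 1384 to 2459 CPM in wildtypes, with no member at 0 in every library; of its 17 tested genes 6 rose and 1 fell by edgeR, against 3.34% and 1.99% of all tested genes. At an unadjusted p below 0.05, 7 were higher and 6 lower, DESeq2 called 7 and 4, and the median log2 fold change was -0.59. Genes of other cells were present in both genotypes. For instance, 14 skin and hatching gland genes summed to 4686 to 32039 CPM in mutants and 11455 to 17516 CPM in wildtypes.

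Crystallin transcripts were higher in the mutants. Summed over the 52 genes, the libraries held 5398, 1162 and 6329 counts in mutant replicates 1, 2 and 3, and 194, 404 and 446 in wildtype replicates 1, 2 and 3. The groups did not overlap, and mutant replicate 2 lay well under the other mutants. On the CPM scale the sums were 302 ± 197 in mutants and 19.4 ± 8.04 in wildtypes (SD, n = 3 each), a ratio of means of 15.5, which ranged from 12.3 without mutant replicate 1 to 21.4 without mutant replicate 2. Less RNA per cell and fewer cells of a type cannot be told apart in such bulk samples.

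Of the 52 genes 17 passed the filter on low counts and were tested, 11 rose in the mutants and none fell (edgeR quasi-likelihood test, adjusted p below 0.05 over 18722 genes). Over all tested genes 3.34% were higher and 1.99% lower. At an unadjusted p below 0.05, edgeR had 13 crystallin genes higher and 0 lower, against 11.9% and 10.9% of all genes. DESeq2 called 13 higher and 0 lower, against 7.39% and 6.65%, and limma voom 5 higher (crygm2d13, cryba1l1, cryba1b, CRYBB1 and CRYBA4) and 0 lower, against 7.8% and 7.22%. The filter asks for a minimum count in any 3 of the 6 libraries. A gene near 0 in mutant replicate 2 and in every wildtype library is therefore not tested, however high it is in the other mutants. Of the 11 genes 4, CRYBA2 (ENSDARG00000041925) and 3 crygm2d genes, reached the minimum in no wildtype library and so could enter the test only by being high in the mutants. In 4 others, cryba1b, cryba1l1, CRYBA4 and CRYBB1, all 6 libraries reached it. The rest were crybb1l1, with 1 wildtype library at the minimum, and CRYBA2 (ENSDARG00000030349) and CRYGN (ENSDARG00000030411), with 2 each. These too needed mutant libraries to enter the test. Of the 17 tested genes 5 had every wildtype library at the minimum. With no filter 47 crystallin genes were tested, 23 were higher and none lower by edgeR, against 2.58% and 1.84% of all genes in that fit. Read without a test, 23 of the 52 genes had every mutant library above every wildtype library, as did 12.2% of the 27514 genes with a count.

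The calls rested on few libraries. Without mutant replicate 3 only cryba1b of the 11 still passed (adjusted p of the others 0.0504 to 0.138), and without wildtype replicate 2 only CRYBB1 (0.079 to 0.139). Leaving out wildtype replicate 3 ended 8 of the 11 (0.0502 to 0.106) and wildtype replicate 1 ended 4 (0.058 to 0.0706). Mutant replicate 1 was needed for CRYBA2 (ENSDARG00000030349; 0.0552 without it) and mutant replicate 2 for CRYBB1 (0.0724 without it). With mutant replicate 2 left out, 30 crystallin genes passed the filter and 20 were higher, against 0.735% of all genes in that fit. Leaving out any 1 library makes the filter ask for fewer libraries. Without mutant replicates 1 and 3, 18 and 17 crystallin genes passed it, with 10 and 1 higher. Without wildtype replicates 1, 2 and 3, 31 passed it each time, with 7, 1 and 3 higher. Counts over all genes moved as well: 5.68% were higher without mutant replicate 1 and 0.522% without mutant replicate 3. The shares were 2.17%, 0.256% and 1.1% without wildtype replicates 1, 2 and 3.

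**Figure D1:**
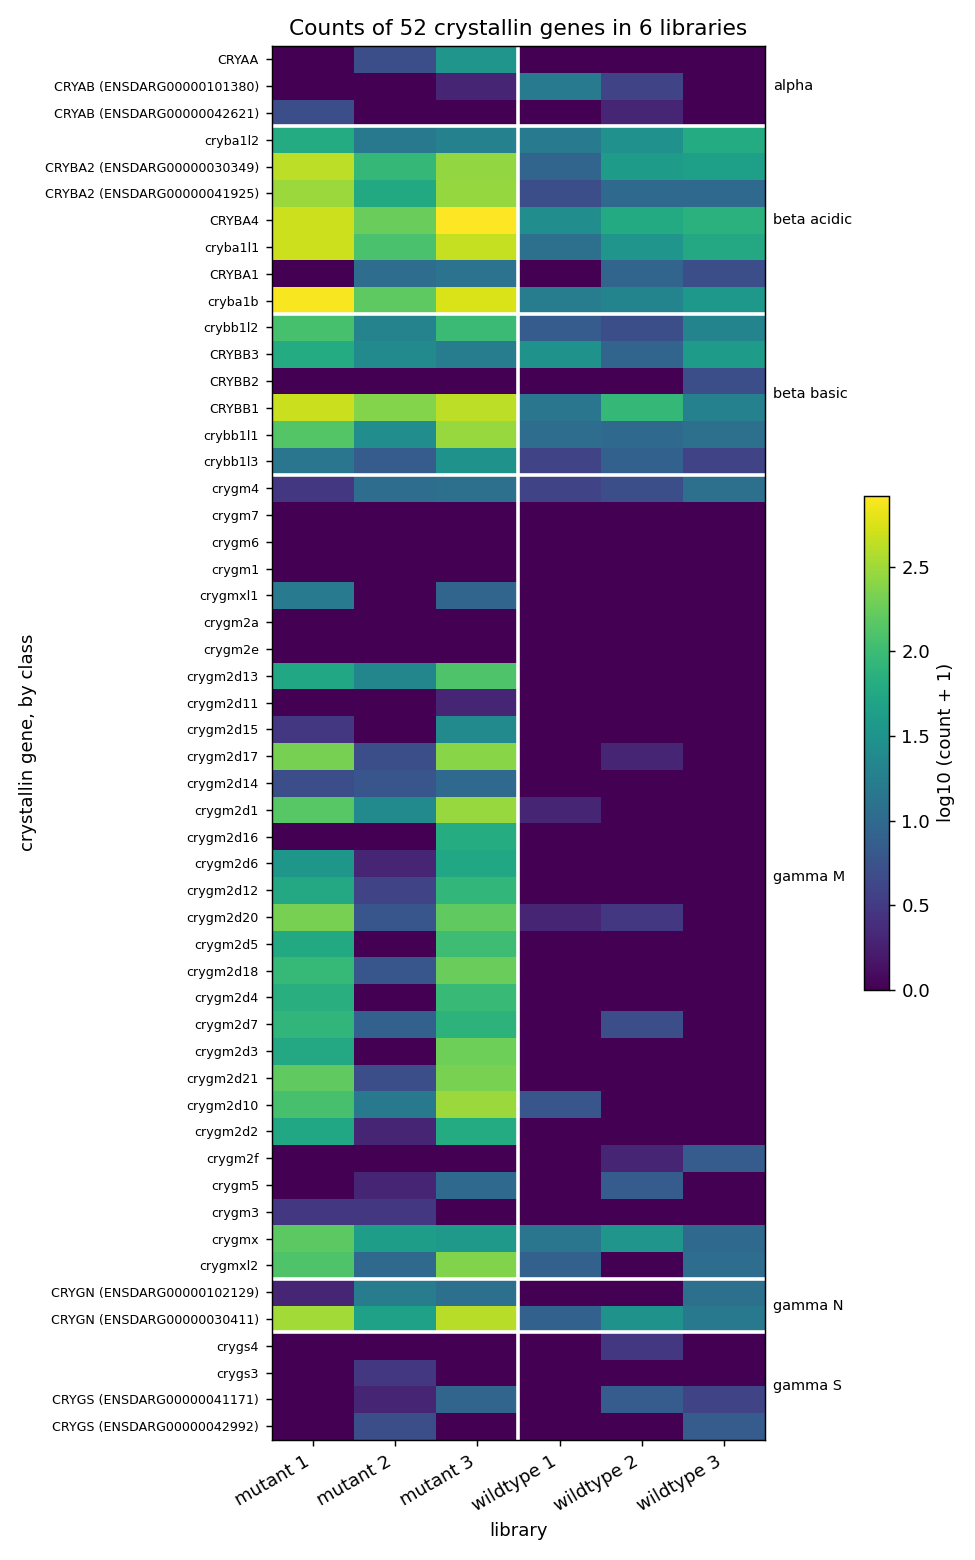
Counts of the 52 crystallin genes (rows, by class) in 6 libraries (columns), coloured by log10 of the count plus 1. Mutant replicates 1 and 3 are brightest in the beta genes and in the crygm2d genes, mutant replicate 2 is dimmer, and 22 genes hold no count in any wildtype library.

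Acidic beta crystallins carried from 38.6% of crystallin counts in mutant replicate 3 to 63.0% in wildtype replicate 3, the largest share of any class in all libraries but mutant replicate 3, where the gamma M genes held more. Of 7 genes 6 were tested, 5 rose and none fell by edgeR, against 3.34% and 1.99% of all tested genes. There were 0 lower at an unadjusted p below 0.05 and by DESeq2. Of the 5, CRYBA2 (ENSDARG00000041925) had no wildtype library at the filter's minimum. The gene cryba1b (ENSDARG00000053875, chromosome 21, 39140703 to 39149628 on the plus strand of GRCz10) held 769, 155 and 563 counts in mutant replicates 1 to 3 and 16, 20 and 35 in wildtype replicates 1 to 3. All mutant libraries lay above all wildtype libraries, at 35.6 ± 25.5 against 1.30 ± 0.484 CPM (SD, n = 3; log2 fold change 4.77 ± 0.68 SE, edgeR adjusted p = 0.00994). Its fold change was 27.3, and 17.4 without mutant replicate 1.

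CRYBA4 (ENSDARG00000024548, chromosome 10, 44195430 to 44204668) held 497, 177 and 830 counts in the mutants and 26, 60 and 72 in the wildtypes, again without overlap (11.8-fold, edgeR adjusted p = 0.0176). Per kilobase of exon it was the most abundant crystallin of either genotype, with a mean level of 48.7 CPM per kb in mutants and 4.14 CPM per kb in wildtypes. By the same measure cryba1b followed in the mutants at 30.8 and CRYBB1 at 28.8 CPM per kb. The orders differed between genotypes below the first place, since CRYBB1 came next in the wildtypes at 2.48 CPM per kb and CRYBB3 after it at 1.33 CPM per kb.

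On chromosome 14, cryba1l1 (ENSDARG00000032929, 47319691 to 47333038) held 495, 121 and 457 counts in the mutants and 11, 32 and 57 in the wildtypes (13.8-fold, edgeR adjusted p = 0.024). Both genes with the symbol CRYBA2 rose. ENSDARG00000041925, on chromosome 9 at 11583156 to 11589229 and so outside the gamma cluster, held 305, 59 and 283 counts in the mutants and 4, 9 and 9 in the wildtypes (36.8-fold, adjusted p = 0.0116). ENSDARG00000030349 on chromosome 6 held 425, 86 and 278 counts in the mutants and 8, 39 and 43 in the wildtypes (11.2-fold, adjusted p = 0.0401, and 6.83-fold without mutant replicate 1). The 2 genes thus had similar mutant counts, while the wildtype counts of the second were higher.

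The other acidic beta genes overlapped between genotypes. The counts of cryba1l2 (ENSDARG00000014803) were 62, 14 and 18 in the mutants and 15, 29 and 61 in the wildtypes (log2 fold change 0.27 ± 0.88 SE, edgeR adjusted p = 0.89; -0.91 without mutant replicate 1). CRYBA1 (ENSDARG00000041141) held 0, 10 and 12 counts in the mutants and 0, 8 and 4 in the wildtypes and was not tested.

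Among 6 basic beta genes 4 were tested, 2 rose and none fell by edgeR, against 3.34% and 1.99% of all tested genes. There were 0 lower at an unadjusted p below 0.05 and by DESeq2. CRYBB1 (ENSDARG00000068507, chromosome 10, 44174427 to 44180594), a chain of the beta oligomers, held 489, 236 and 420 counts in the mutants and 13, 86 and 18 in the wildtypes. The groups were apart, and wildtype replicate 2 stood over the other wildtypes (11.7-fold, adjusted p = 0.0346; 32.9-fold without wildtype replicate 2). For crybb1l1 (ENSDARG00000007576, chromosome 14, 47316814 to 47323257) the counts were 137, 26 and 297 against 10, 9 and 11 (18.8-fold, adjusted p = 0.0263; 11.2-fold without mutant replicate 3). Its wildtype values were nearly even, at 0.526, 0.558 and 0.568 CPM.

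Counts of crybb1l2 (ENSDARG00000016793) were 116, 19 and 96 in the mutants and 6, 4 and 20 in the wildtypes. The libraries did not overlap on the CPM scale, but the gene did not pass in edgeR (log2 fold change 3.34 ± 0.92 SE, edgeR adjusted p = 0.0711), while DESeq2 called it higher. CRYBB3 (ENSDARG00000041301) overlapped between genotypes, with 61, 24 and 16 counts in the mutants and 30, 8 and 39 in the wildtypes (log2 fold change 0.84 ± 0.86 SE, adjusted p = 0.615; -0.10 without mutant replicate 1). The untested crybb1l3 (ENSDARG00000007655) held 13, 6 and 31 counts in the mutants and 3, 7 and 3 in the wildtypes, so its groups overlapped too. CRYBB2 held 4 counts, all in wildtype replicate 3.

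Beta genes form 4 pairs of a minus-strand and a plus-strand gene whose starts, in the direction of transcription, lie within 20 kb. The genes of a pair overlap on chromosomes 1, 14 and 15, and crybb1l3 lies within CRYBA1. On chromosome 10 they are apart. In the pair on chromosome 10, CRYBB1 and CRYBA4 had ratios of summed counts of 12.2 and 11.8 after scaling for library size, and of 32.3 and 13.4 without wildtype replicate 2. Those on chromosome 14, crybb1l1 and cryba1l1, had 19.1 and 13.3, and in the other order 10.5 and 11.9 without mutant replicate 3. On chromosome 1 crybb1l2 stood at 9.57 (95% counting interval 6.53 to 14.5) and cryba1l2 at 1.11 (0.833 to 1.48); the former was 18.5 without wildtype replicate 3. On chromosome 15 the ratios were 2.28 for CRYBA1 (1.08 to 5.05) and 4.78 for crybb1l3 (2.56 to 9.59), which became 4.81 and 7.29 without wildtype replicate 2 and 1.61 and 2.83 without mutant replicate 3. Partners on chromosomes 1, 14 and 15 share 125 to 161 exon bases, and fragments there that touch both genes were not counted. These intervals, and the floors used below, cover counting error only.

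**Figure D2:**
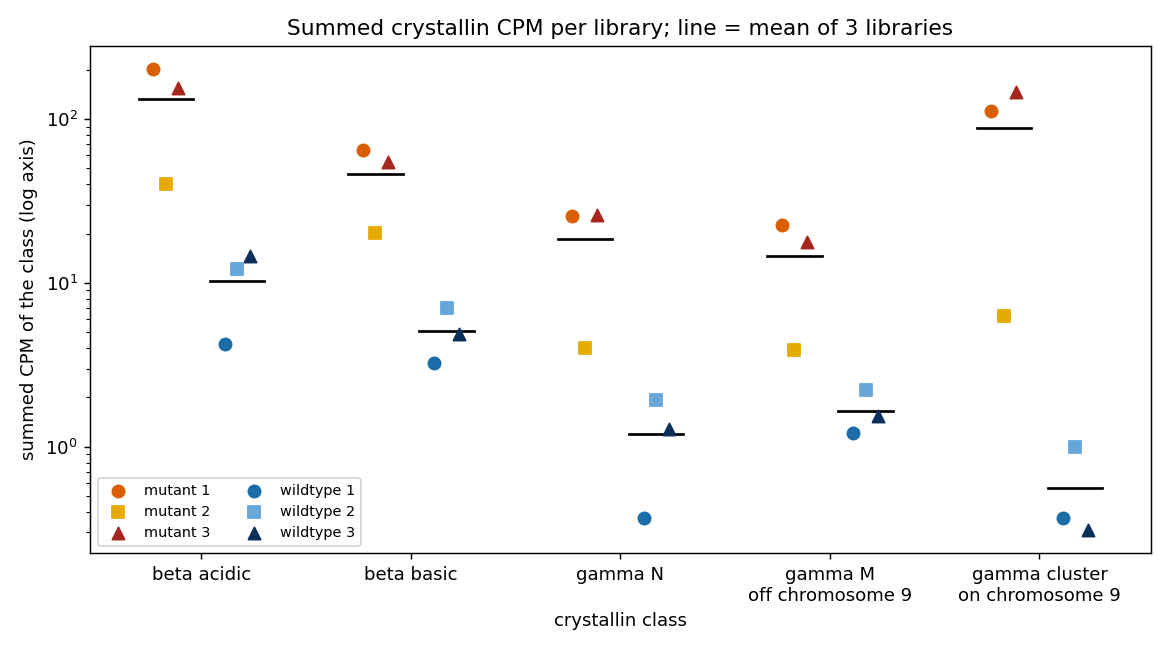
Summed CPM (log axis) of 5 crystallin groups in each library, with a line at the mean of 3 libraries. Every mutant library lies above every wildtype library in each group, and the gap between mutant replicate 2 and the other mutants is widest for the gamma cluster on chromosome 9.

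The gamma crystallins of chromosome 9 differed most in size. Of 31 crystallin genes there, 29 lie in 1 run of 373.2 kb (22182223 to 22555373), 23 of them on the minus strand. This cluster held 1419, 98 and 2298 counts in mutant replicates 1 to 3 and 7, 16 and 6 in wildtype replicates 1 to 3. All mutant libraries lay above all wildtype libraries, at 88.3 ± 73.0 CPM against 0.557 ± 0.378 CPM (SD, n = 3; ratio of means 159, 107 without mutant replicate 3 and 260 without wildtype replicate 2). The cluster made up 26.3%, 8.43% and 36.3% of all crystallin counts in mutant replicates 1, 2 and 3, and 3.61%, 3.96% and 1.35% in wildtype replicates 1, 2 and 3.

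Counts within the cluster came nearly all from the 18 crygm2d genes, which lie together between 22280292 and 22528713. They held 3776 of the 3815 mutant counts and 14 of the 29 wildtype counts. All mutants lay over all wildtypes in 12 of the 18, against 12.2% of the genes with a count. In wildtypes 13 of the 18 had no count in any library. Genes with no wildtype count but at least 1 mutant count were 4.67% of the 27514 genes with a count, and the reverse was 4.86%. Because 10 of the 18 share exon bases with a neighbour, and near-identical copies lose fragments that map to several places, values of single crygm2d genes are uncertain, and their sum leaves out such fragments.

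The filter let through 3 of the 18. None of their wildtype libraries reached its minimum, so they could be tested only because all mutant libraries did, and that each of them was higher is no evidence beyond their values. The gene crygm2d1 (ENSDARG00000087324) held 145, 23 and 294 counts in the mutants and 1, 0 and 0 in the wildtypes (edgeR adjusted p = 0.0111). Its ratio of summed counts was 574 (95% counting interval 103 to 22733), or 326 without mutant replicate 3 and 370 without wildtype replicate 3. With its lone wildtype count gone, without wildtype replicate 1, it was at least 125-fold higher, taking a floor of 3 counts over the group. For crygm2d13 (ENSDARG00000057460) the counts were 55, 21 and 129 in the mutants and 0 in each wildtype library (adjusted p = 0.0182). It was at least 84.9-fold higher, at least 49.1-fold without mutant replicate 3, and at least 55.3-fold or 54.8-fold without wildtype replicate 1 or 3, where the floor covers fewer libraries.

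Counts of crygm2d10 (ENSDARG00000087765) were 115, 14 and 300 in the mutants and 5, 0 and 0 in the wildtypes (adjusted p = 0.0317, edgeR). The ratio was 107 (45.4 to 330), or 49.99 without mutant replicate 3 and 68.7 without wildtype replicate 3. All its wildtype counts lay in wildtype replicate 1, and without that library it was at least 116-fold higher. In these 3 genes mutant replicate 2 was lowest of the mutants and mutant replicate 3 highest.

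The filter left out 15 crygm2d genes. The one with most counts, crygm2d17 (ENSDARG00000069817), held 207, 4 and 249 counts in the mutants and 0, 1 and 0 in the wildtypes, a ratio of 572 (102 to 22635). The ratio ran from 369 without wildtype replicate 3 to 877 without mutant replicate 2, and was at least 134 without wildtype replicate 2, which held the lone wildtype count. For crygm2d21 the counts were 162, 4 and 216 in the mutants and 0 in all wildtypes, which makes it at least 158-fold higher. The counts of crygm2d20 were 209, 5 and 158 in the mutants and 1, 2 and 0 in the wildtypes, a ratio of 154 (52.3 to 751), from 94.8 without mutant replicate 1 to 326 without wildtype replicate 2. All 3 are thus rich in mutant replicates 1 and 3 and hold at most 5 counts in mutant replicate 2.

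A like split between the mutants was seen in most of the rest. Mutant counts were 90, 5 and 177 for crygm2d18 and 57, 0 and 187 for crygm2d3, with 0 in every wildtype library (at least 113-fold and 101-fold higher). They were 68, 0 and 95 for crygm2d4 and 59, 0 and 102 for crygm2d5, again with 0 in the wildtypes (at least 67.5-fold and 66.7-fold). They were 57, 3 and 85 for crygm2d12, 55, 1 and 61 for crygm2d2 and 34, 1 and 55 for crygm2d6, with 0 in the wildtypes (at least 60.1-fold, 48.5-fold and 37.3-fold). Mutant replicate 2 held no more than 5 counts of any of these 7 genes.

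For crygm2d7 there were 83, 7 and 77 counts in the mutants and 0, 4 and 0 in the wildtypes, a ratio of 51.9 (19.9 to 193). With 1 library left out it ran from 33.5 (without wildtype replicate 3) to 76.9 (without mutant replicate 2), or at least 48.7 without wildtype replicate 2, which held all its wildtype counts. Counts of crygm2d16 came from 1 library alone, mutant replicate 3, with 63. For crygm2d15 they were 2, 0 and 23 and for crygm2d14 they were 4, 5 and 9 in mutant replicates 1 to 3, with 0 in the wildtypes. The last of the 18, crygm2d11, held 1 count in all. With no filter 14 of the 18 passed the edgeR test (adjusted p = 0.00133 to 0.0382), against 2.58% of all genes in that fit.

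The 11 other genes of the cluster were near 0 in both genotypes. Those 11 held 17, 5 and 17 counts in the mutants and 0, 9 and 6 in the wildtypes, and none passed the filter. At the end with the lower coordinates, crygm7, crygm6, crygm1, crygm2a and crygm2e held 0 counts in all 6 libraries, while crygmxl1 held 15, 0 and 8 in the mutants and 0 in the wildtypes. At the other end crygm5 held 0, 1 and 9 counts in the mutants and 0, 6 and 0 in the wildtypes, and crygm2f, crygs4, crygs3 and crygm3 held 2 to 7 counts in all. Here 0 counts in a library of this depth limit the level only to 3 counts, and copies whose fragments map to several places would also be listed at 0.

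**Figure D3:**
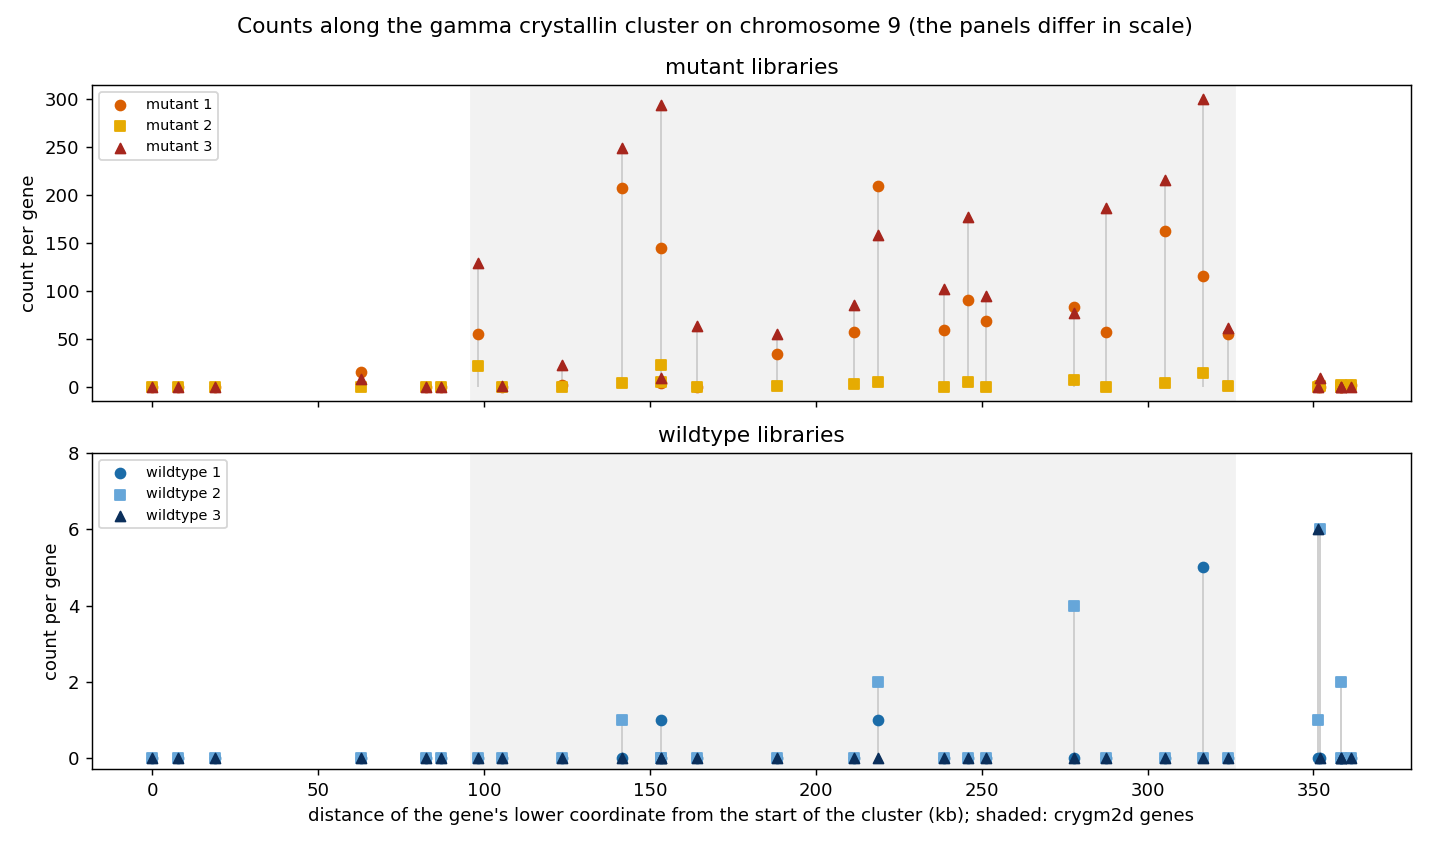
Counts of the 29 crystallin genes of the chromosome 9 cluster by the distance of each gene's lower coordinate from the start of the cluster (kb), for mutant (top) and wildtype (bottom) libraries on different scales. The crygm2d genes (shaded) hold up to 300 counts in a mutant library and at most 5 in a wildtype library, and the flanking genes hold at most 15 in any library.

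Of 24 other genes within 500 kb on either side of the cluster 19 were tested. By edgeR none was higher and 1 was lower, ACOD1 (log2 fold change -1.59, edgeR adjusted p = 0.0212), against 3.34% and 1.99% of all tested genes. At an unadjusted p below 0.05, 4 were higher and 4 lower, against 11.9% and 10.9%. DESeq2 called 1 higher and 2 lower, against 7.39% and 6.65%, and limma voom called 1 higher and 3 lower, against 7.8% and 7.22%. Inside the cluster lie 8 genes without a crystallin symbol. Of these, 5 held no count, and 3 known here by identifier only held more counts in the mutants, summed over the libraries. In none of these 3 did every mutant library lie above every wildtype library. ENSDARG00000086912 held 171 mutant counts and 0 wildtype counts, ENSDARG00000076693 held 511 and 23 (log2 fold change 4.71, adjusted p = 0.111), and ENSDARG00000088687 held 152 and 13 (3.89, adjusted p = 0.242).

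Off chromosome 9, crygmx and crygmxl2 lie side by side on chromosome 12. Counts of crygmx (ENSDARG00000053862) were 150, 41 and 37 in the mutants and 13, 32 and 9 in the wildtypes. The libraries did not overlap on the CPM scale, but the gene did not pass in edgeR (log2 fold change 2.43 ± 0.88 SE, edgeR adjusted p = 0.141), while DESeq2 called it higher. Its fold change was 5.38, 2.38 without mutant replicate 1 and 9.63 without wildtype replicate 2. The untested crygmxl2 (ENSDARG00000074001) held 131, 9 and 230 counts in the mutants and 7, 0 and 10 in the wildtypes, a ratio of 27.1 (16.7 to 46.9), which was 15.96 without mutant replicate 3 and 42.4 without wildtype replicate 3. In crygm4 on chromosome 6 the groups overlapped, with 2, 10 and 11 counts in the mutants and 3, 4 and 11 in the wildtypes (log2 fold change 0.62 ± 1.04 SE, adjusted p = 0.773).

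Of the gamma N genes, CRYGN (ENSDARG00000030411, chromosome 24, 41441956 to 41449024) rose. It held 322, 46 and 400 counts in the mutants and 7, 31 and 14 in the wildtypes, with no overlap (18.0-fold, edgeR adjusted p = 0.0326; 32.3-fold without wildtype replicate 2, where it did not pass). The other CRYGN gene (ENSDARG00000102129) held 1, 16 and 11 counts in the mutants and 0, 0 and 11 in the wildtypes and did not pass (log2 fold change 1.62 ± 1.55 SE, adjusted p = 0.589). It was highest in mutant replicate 2, unlike its namesake.

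Alpha and gamma S crystallins were scarce. CRYAA, the alpha A chain, held 0, 4 and 32 counts in the mutants and 0 in the wildtypes, at least 14.9-fold higher by the sum and at least 2.58-fold without mutant replicate 3; the groups overlapped. CRYAB (ENSDARG00000101380), an alpha B chain, went the other way, with 0, 0 and 1 counts in the mutants and 15, 3 and 0 in the wildtypes, a ratio of 0.0691 (0.00166 to 0.437). Its groups overlapped, and without wildtype replicate 1 the ratio was 0.27 (0.00514 to 3.36). The second CRYAB gene held 5 counts in all. None of the 3 alpha genes passed the filter, and their counts together were 41 in mutants and 19 in wildtypes. Of the gamma S genes, both with the symbol CRYGS held few counts, 0, 1 and 8 against 0, 6 and 3 for ENSDARG00000041171 and 0, 4 and 0 against 0, 0 and 6 for ENSDARG00000042992. The 4 gamma S genes summed to 15 mutant and 17 wildtype counts, so that no difference was detectable at this depth.

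Mutant libraries differed among themselves by class. In all 11 called genes mutant replicate 2 was the lowest mutant, as it was in 28 of the 47 crystallin genes with a count. Its level was 25.2% of the mean of mutant replicates 1 and 3 for the summed beta genes, 15.5% for the gamma N genes and 4.68% for the crygm2d genes. For the scarce gamma S genes it was 177%. Among genes with at least 100 counts over the mutants, this share ran from 18.0% to 24.8% in 5 acidic beta genes. It ran from 11.3% to 52.9% in 4 basic beta genes and from 0% to 21.6% in 13 crygm2d genes. In the 2 gamma M genes outside crygm2d it was 4.64% (crygmxl2) and 37.1% (crygmx), so a low share was not particular to crygm2d. The crygm2d gene at 21.6% is crygm2d13. Over the 44 crystallin genes with a mutant count, the order of levels was most alike between mutant replicates 1 and 3 (Spearman's rho 0.869, against 0.676 and 0.603 for the pairs with mutant replicate 2). These are descriptions across genes, which are not replicates and share each library's depth.

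**Figure D4:**
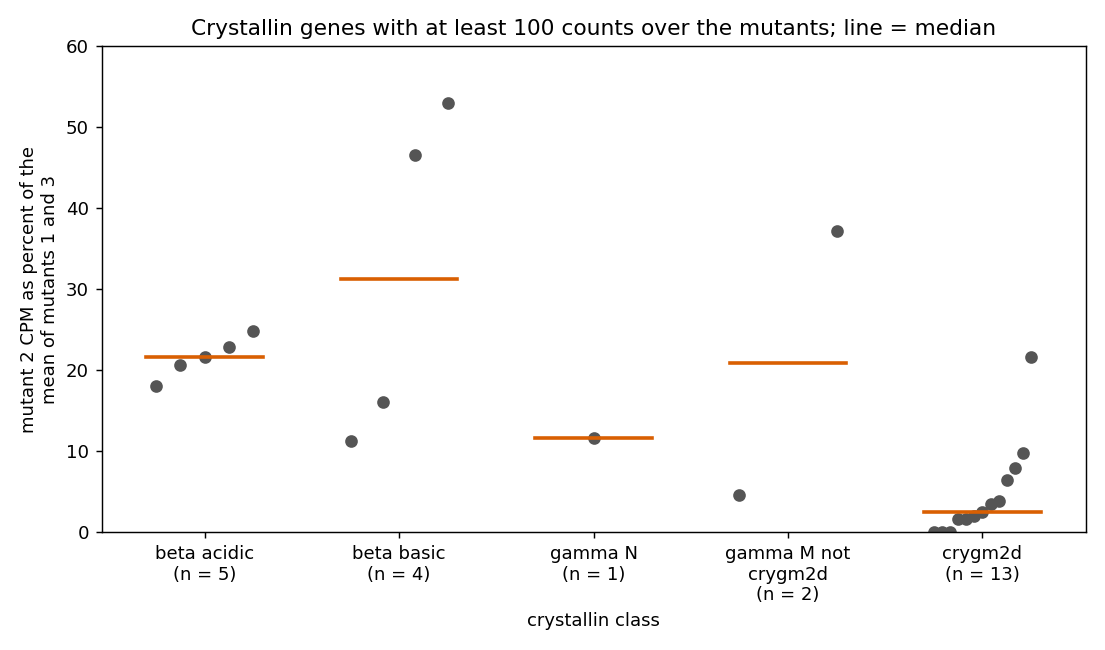
The CPM of mutant replicate 2 as a percent of the mean of mutant replicates 1 and 3, for each crystallin gene with at least 100 counts over the mutants, with a line at the median of each group. The crygm2d genes have a median of 2.42% and the acidic beta genes 21.6%. The 2 other gamma M genes are at 4.64% and 37.1%.

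Other lens genes were counted from a list of 32 entries, of which 28 were matched and 24 tested. By edgeR 3 rose and none fell, against 3.34% and 1.99% of all tested genes, and 21 did not pass; at an unadjusted p below 0.05 there were 9 higher and 0 lower, DESeq2 called 5 and 0, and limma voom 3 and 0. The median log2 fold change was 0.33, against 0.02 over all tested genes, and 14 of the 24 tested genes had a positive one. The 28 matched genes summed to 426, 255 and 236 CPM in mutant replicates 1, 2 and 3. In wildtype replicates 1, 2 and 3 they summed to 284, 209 and 251 CPM, so the groups overlapped. The risen genes encode membrane proteins of lens fibres. The lens water channel gene MIP (ENSDARG00000037285) held 569, 312 and 360 counts in the mutants and 116, 35 and 49 in the wildtypes (8.12-fold, edgeR adjusted p = 0.0168). For lim2.1 they were 444, 189 and 205 against 61, 39 and 72 (6.44-fold, adjusted p = 0.022), and for lim2.3 they were 89, 43 and 112 against 0, 0 and 2 (adjusted p = 0.0129). The groups did not overlap in these 3 genes. No wildtype library of lim2.3 reached the filter's minimum, so lim2.3 could be tested only because its mutant libraries did.

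The ratio of summed counts for lim2.3 was 152 without any library left out, 98.8 without wildtype replicate 1 and at least 65.2 without wildtype replicate 3, where no wildtype count is left. MIP was 12.4-fold higher without wildtype replicate 1 and 5.91-fold higher without mutant replicate 1, and lim2.1 was 4.01-fold higher without mutant replicate 1. None of these 3 passed without mutant replicate 3 (edgeR adjusted p = 0.0556 to 0.063) or wildtype replicate 2 (0.0781 to 0.116), and without wildtype replicate 3 only lim2.3 did. On the CPM scale mutant replicate 2 was the lowest mutant in all 3, though near mutant replicate 3 in MIP and lim2.1.

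The second MIP gene (ENSDARG00000013963) held 239, 65 and 230 counts in the mutants and 50, 14 and 60 in the wildtypes (log2 fold change 2.51 ± 0.68 SE, edgeR adjusted p = 0.0686). BFSP1, a filament protein gene of lens fibres, stood at 102, 61 and 45 against 7, 17 and 37 (2.15 ± 0.76, adjusted p = 0.136). The transcription factor gene pitx3 stood at 168, 342 and 195 against 47, 161 and 118 (1.37 ± 0.53, adjusted p = 0.164), and dnase1l1l, a nuclease gene that acts in the loss of fibre nuclei in zebrafish, at 96, 181 and 231 against 88, 89 and 132 (adjusted p = 0.192). For foxe3, a transcription factor gene of the lens epithelium, chosen after its values were seen, the counts overlapped at 406, 171 and 73 against 254, 100 and 206 (0.66 ± 0.64, adjusted p = 0.595; -0.37 without mutant replicate 1).

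**Figure D5:**
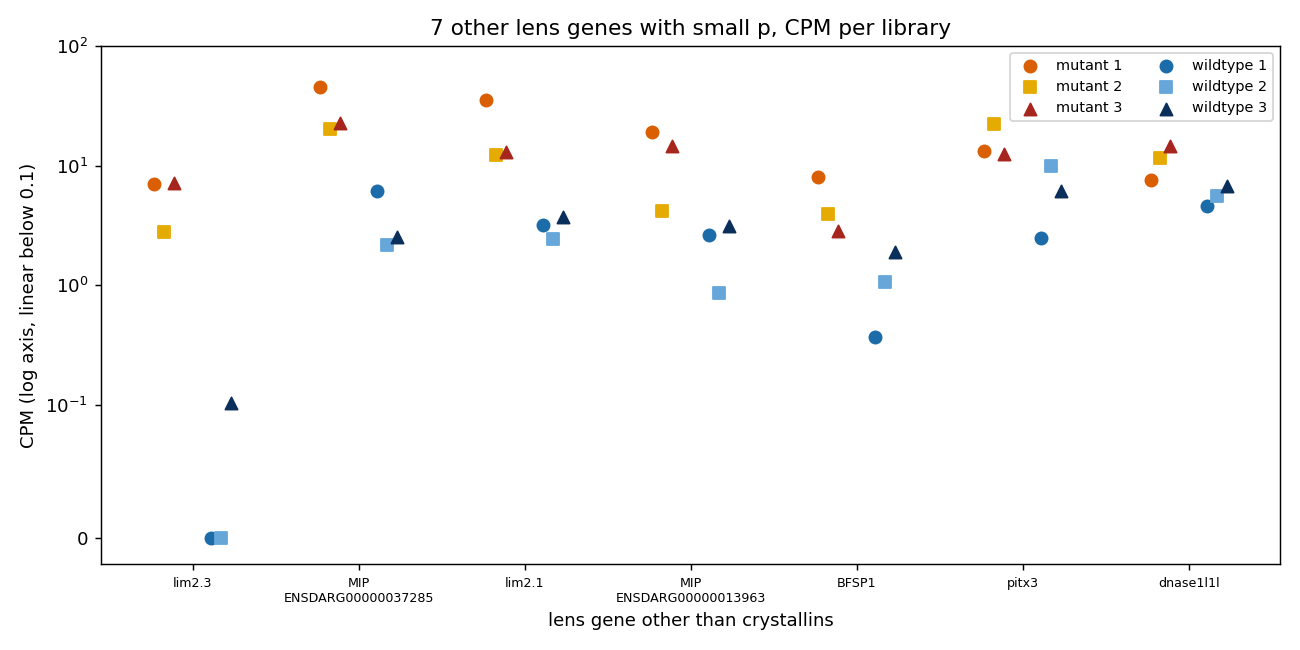
CPM per library (log axis, linear below 0.1) of 7 lens genes outside the crystallins, chosen for the smallest p. The mutant libraries lie above all wildtype libraries in lim2.3, both MIP genes, lim2.1, BFSP1, pitx3 and dnase1l1l, and the gap is widest in lim2.3.

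Marker genes of other cells moved in the same libraries, and their part in the crystallin values was not tested. Of all tested genes edgeR called 3.34% higher and 1.99% lower, and DESeq2 7.39% and 6.65%. At an unadjusted p below 0.05 edgeR had 11.9% and 10.9%. Erythroid genes rose in 14 of 16 tested. They summed to 10872, 34521 and 32294 CPM in mutant replicates 1, 2 and 3, against 622 to 4326 CPM in wildtypes. Their order within the mutants was not that of the crystallins, since mutant replicate 2 was highest. Retina genes, neighbours of the lens in the eye, overlapped between genotypes, with sums of 19.9 to 52.9 CPM in mutants and 20.8 to 63.8 CPM in wildtypes. Of 22 retina genes 12 were tested. By edgeR PRPH2 (ENSDARG00000014840) rose and VSX1, most of whose counts lay in wildtype replicate 1, fell. No wildtype library of PRPH2 and no mutant library of VSX1 reached the filter's minimum. Each could be tested only through the group where it was higher. At an unadjusted p below 0.05, 3 retina genes were higher and 1 lower, and DESeq2 called 2 and 1.

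Neuron genes summed to 61.3 to 95.5 CPM in mutants and 144 to 651 CPM in wildtypes. Of 14 tested ELAVL3 and NEUROD1 fell and none rose by edgeR, with a median log2 fold change of -2.03. At an unadjusted p below 0.05, 7 were lower and 0 higher, DESeq2 called 5 lower and 0 higher, limma voom 4 lower and 0 higher, and gap43 was at 0 in every library. Among 14 tested skin and hatching gland genes krt91 fell and none rose (2 lower and 0 higher at an unadjusted p below 0.05 and by DESeq2), and the sum was highest in mutant replicate 1, at 32039 CPM. Of 15 muscle genes none passed by edgeR (1 higher and 1 lower at an unadjusted p below 0.05, and 1 higher by DESeq2), with sums of 117 to 141 CPM in mutants and 112 to 188 CPM in wildtypes. Pigment cell genes summed to 16.4 to 20.8 CPM in mutants and 13.7 to 85.8 CPM in wildtypes. Of 7 tested mlphb fell and none rose by edgeR. No mutant library of mlphb reached the filter's minimum, so mlphb could be tested only through the wildtypes. At an unadjusted p below 0.05, 1 was higher and 2 lower, and DESeq2 called 1 and 1.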

How the data were processed

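Transcripts were measured by RNA-seq of polyadenylated RNA. The authors deposited raw counts, whole numbers of paired fragments per gene; per the file headers they ran featureCounts 1.5.0-p1 with the Ensembl release 85 annotation of GRCz10, required both mates to map, and set no strand, multi-mapping or overlap flag. Exon lengths come from the same deposited table. STAR 2.4.2a, Cufflinks 2.2.1, Picard, Trim Galore and DESeq2 are named, without roles, in the submitters' processing notes. Symbols came from an Ensembl name table, which named 26269 of 32105 genes; 141 of 169 list entries found a gene, 107 of them through the symbol itself and 34 through the orthologue's symbol without the paralogue ending.

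The two-sided quasi-likelihood test of edgeR 4.0.16 (R 4.3.3) used TMM factors and the filterByExpr defaults (minimum count 10, minimum total 15), with p-values adjusted by Benjamini-Hochberg over all tested genes. CPM use TMM-scaled total counts. Means carry the SD, and SEs are the log2 fold change over the square root of F. Ratios of summed counts carry exact 95% binomial intervals, with a floor of 3 counts for 0. Alternatives were RLE, 2 other filters (none, or 1 CPM in 3 libraries), DESeq2 1.42.0, limma 3.58.1 voom, the replicate number as a block, and each library left out. The fit was tested on simulated data. The rule named each tested crystallin gene, each other with at least 10 counts, and the 8 other lens genes with the smallest p, of which 1 is not reported here. The genes and lists were chosen with earlier results of these data known. No sequences are shown, since no sequence table was used here.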

Additional observations from a re-analysis of the deposited data

How the results depend on the processing

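Direction did not turn for any of the 11 called crystallin genes under the alternatives run. In each of the 11 every mutant library lay above every wildtype library. Their steady direction with 1 library left out therefore adds nothing to those values. The log2 fold change of cryba1l2 turned to -0.70 with limma voom and -0.063 with the replicate block, and ranged from -0.91 to 0.84 with 1 library left out; that of CRYBB3 ranged from -0.10 to 1.22. The causes were not tested. The 11 higher crystallin genes became 23 with no filter, where more genes enter the test, and 5 with limma voom, where the cause was not tested, and 1 to 20 with 1 library left out. All tested genes higher, 625 in the main test, numbered 1297 by DESeq2, 1460 by limma voom and 51 to 1135 with 1 library left out; those lower, 373, numbered 1168, 1352 and 11 to 832. Other lens genes higher, 3, numbered 5 by DESeq2 and 0 to 3 with 1 library left out. Libraries with the same replicate number correlated at 0.224, 0.155 and 0.088 in their deviations from the group means, each best with its own number, a hint from the data and not the design; with the replicate block 10 crystallin genes were higher, where CRYBA2 (ENSDARG00000030349) and CRYGN (ENSDARG00000030411) no longer passed and crybb1l2 did, and 917 genes were higher and 653 lower. Without the 3 most abundant genes in the library size, the summed CPM of all crystallins was higher in both genotypes, as the totals that divide the counts were smaller. It was 424 in mutants, against 302, and 27.7 in wildtypes, against 19.4. Crystallin genes without overlap of the libraries numbered 22 with total counts as the library size and 23 to 29 with 1 library left out. The share over all genes is not given for these settings, and fewer libraries make non-overlap easier for any gene. These numbers are therefore not read as a result about the crystallins. They and the sums without each library were added after seeing the data. Depth limits the alpha and gamma S genes, at 0 to 33 counts per library and class, and the 11 cluster genes other than crygm2d, at 0 to 17 in sum.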
